A study of Mus musculus with 8 samples.

Results

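The cytosolic ribosomal protein genes of the mouse heart ventricle were compared between tumor-bearing and PBS-injected male mice. The members were the protein-coding rows of the gene count table whose symbol starts with Rpl or Rps followed by a number, Rplp0, Rplp1, Rplp2 or Rpsa, without the S6 kinases, and they came to 106 of the 43346 genes listed. By name, 43 encode large subunit proteins, 31 small subunit proteins and 3 the proteins of the stalk, so that 77 are standard subunit genes. A further 8 are paralogues of standard genes, 20 carry a pseudogene name or are a retrocopy although they are annotated as protein coding, and 1, Rps19bp1, encodes a protein that binds Rps19 and is not itself a ribosomal protein.

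The samples were 4 male C57BL/6 mice that received 1000000 LLC1 cells under the skin of the left flank when 7 weeks old, and 4 male C57BL/6 mice of the same age injected with PBS. LLC1 is a Lewis lung carcinoma line that grows as a transplanted tumor in this strain, and all 8 hearts were taken 14 days after the injection. No altered allele is named for either group, and nothing in the labels says that animals were pooled. Mice are named by group and by the code in their label, such as LLC1 1-2.

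Ribosomal proteins assemble with ribosomal RNA into the small subunit, which reads the mRNA, and the large subunit, which forms the peptide bond. Most are made in equal numbers per ribosome, and many of their mRNAs start with a cytosine followed by a run of pyrimidines, the terminal oligopyrimidine (TOP) tract, through which mTORC1 signalling adjusts their translation. A few standard proteins have tissue-restricted paralogues, of which Rpl3l is made in heart and skeletal muscle in place of Rpl3.

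Counts on genes ranged from 15342214 to 19747596 in the LLC1 mice and from 12480706 to 16192158 in the PBS mice. The 8 cardiomyocyte markers listed (Myh6, Tnnt2, Tnni3, Actc1, Ryr2, Pln, Myl2 and Myl3) took 9.86% to 10.2% of the counts in LLC1 mice and 8.61% to 9.47% in PBS mice, while 3 atrial markers took at most 0.000463% and 6 skeletal muscle markers at most 0.000352% in any mouse. PBS 1-1 stood apart in having 86.8% of its counts on protein-coding genes, against 93.1% to 94.6% in the other 7 mice.

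The mRNAs of Rpl3 and Rpl3l can be told apart by sequence, which matters because many other ribosomal protein genes have near-identical copies. The first 90 coding bases of each, from GENCODE M21 on GRCm38 (mm10), are shown with the bases that differ in capitals. Rpl3 lies on chromosome 15 (80077794 to 80091868) and Rpl3l on chromosome 17 (24727820 to 24736143).
Rpl3-201: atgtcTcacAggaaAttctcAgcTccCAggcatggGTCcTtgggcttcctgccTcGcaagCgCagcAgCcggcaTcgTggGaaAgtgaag
Rpl3l-202: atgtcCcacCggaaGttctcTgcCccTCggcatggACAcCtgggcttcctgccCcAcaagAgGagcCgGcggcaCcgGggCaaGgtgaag
The 2 stretches differ at 21 positions with no gap. Over the whole coding sequences, of 1212 and 1224 bases, 74.4% of 1208 aligned bases were identical and the longest identical run was 22 bases, shorter than the 150-base reads. No transcript of another gene matched Rpl3l at 97% identity or more over at least 150 bases. Rpl3 had such matches in 7 other genes, which covered 64.7% of its longest transcript.

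Of the 106 members, 97 passed edgeR's filter on low counts, and they included every standard subunit gene, 6 of 8 paralogues and 13 of the 20 pseudogene-named rows. The 9 members not tested had at most 70 counts each summed over the 8 mice (Rps2-ps6). At an FDR under 0.05 (edgeR quasi-likelihood test, adjusted over all 16111 genes tested), 8 of the 97 were higher in LLC1 mice and 0 were lower. Among all genes tested, 8.73% were called, 4.12% higher and 4.61% lower, so the called members were all in 1 direction and were a small part of the family. The called members described here were Rpl3l, the stalk genes Rplp0 and Rplp2, the large subunit gene Rpl36, the small subunit gene Rps28 and the pseudogene-named Rps10-ps1 and Rpl27-ps3. In whole ventricle, a change in RNA per cell and a change in the share of a cell type cannot be told apart.

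Most of the family lay slightly above 0. At an unadjusted p under 0.05, 29 of the 97 were higher and 0 were lower (all genes tested: 12.4% and 13.0%). The 4 LLC1 values lay above the 4 PBS values for 15 members and below them for 0, against 8.89% and 8.27% of all genes tested. Without the 8 called members, 21 of the other 89 were higher at an unadjusted p under 0.05, and 8 of 89 did not overlap. The shares of all genes tested keep their called genes in, so they are not a like measure for these 89. The log2 fold change was above 0 for 80 of the 97 (47.9% of all genes tested), with a median of 0.13 beside -0.01 for all genes tested. Of the 77 standard genes 64 were above 0, or 56 with scaling to total counts only, and their median of 0.14 was 0.08 with total counts only and 0.09 with length offsets. Without LLC1 1-2 the median was 0.05, and 53 were above 0. The members were measured in the same 8 libraries, so these counts do not stand for independent observations.

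**Figure D1:**
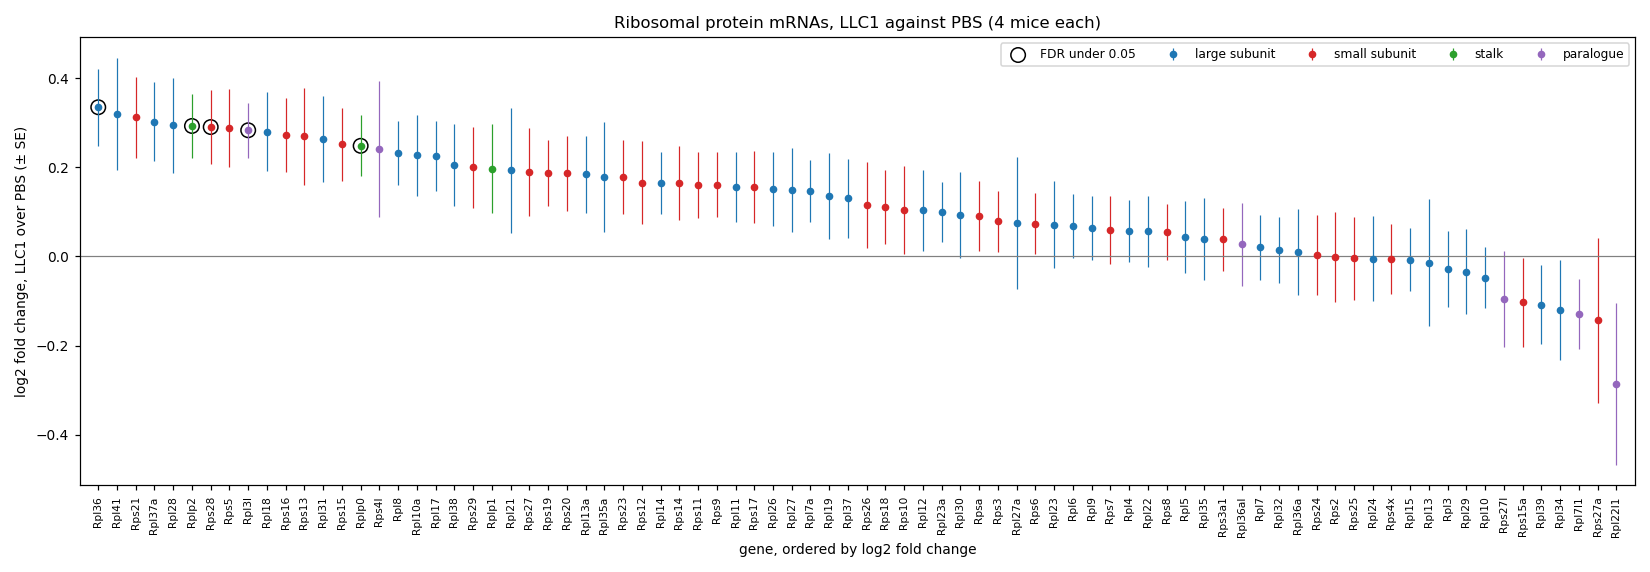
Log2 fold change of LLC1 over PBS mice (vertical axis, point ± standard error from edgeR) for standard subunit genes and the 6 paralogues tested, ordered by fold change along the horizontal axis and coloured by class. Values run from 0.33 for Rpl36 to -0.29 for Rpl22l1, and the 5 circled genes have an FDR under 0.05.

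Rpl3l, the striated muscle paralogue, had the lowest FDR of the family. Its level was 347, 367, 355 and 333 CPM (counts per 1000000 counts, scaled by TMM) in the LLC1 mice 1-2, 1-3, 1-5 and 2-2, and 306, 290.3, 269.9 and 286 CPM in the PBS mice 1-1, 1-3, 2-1 and 2-5. All 4 LLC1 mice lay above all 4 PBS mice, and the means were 350.4 ± 14.5 and 288 ± 14.95 CPM (SD, n = 4 each). The log2 fold change was 0.28 (SE 0.06, edgeR FDR = 0.0174), and the exact permutation p was 0.0286, the smallest that 70 arrangements of the mice can give. With offsets that remove the trend of each library with GC content, the log2 fold change was 0.22 and the call was lost (edgeR FDR = 0.0899). The call was also lost in 4 of the 8 fits that left out 1 mouse, those without LLC1 1-3, LLC1 1-5, PBS 1-3 or PBS 2-1, where the log2 fold change stayed between 0.25 and 0.28 and the edgeR FDR between 0.0508 and 0.0648. Myh6, the main myosin heavy chain of adult mouse cardiomyocytes, rose by a log2 fold change of 0.24 (edgeR FDR = 0.0209), and the summed cardiomyocyte markers did not overlap between the groups. Myh6 was the 1 of the 8 markers called and takes the largest share of their sum, 6 of the 8 had a log2 fold change above 0, and Ryr2 (-0.17) and Actc1 (-0.05) lay below 0. The part of cardiomyocyte content in the Rpl3l result was not tested.

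Rpl3 itself was at 145, 111, 121 and 123 CPM in LLC1 mice and at 115, 129, 128 and 137 CPM in PBS mice. These values overlap, with a log2 fold change of -0.03 (SE 0.09, edgeR FDR = 0.877). Per kilobase of gene length, Rpl3l was the more abundant of the pair in every mouse. The ratio of Rpl3l to Rpl3 counts per length was 4.55, 6.28, 5.57 and 5.13 in LLC1 mice and 5.06, 4.29, 3.997 and 3.95 in PBS mice. LLC1 1-2 lay below PBS 1-1, so the groups overlap by 1 mouse on each side. The mean ratio was 5.38 ± 0.731 against 4.32 ± 0.513, a log2 difference of 0.31 (SE 0.13, exact permutation p = 0.0571, two-sided), which does not pass 0.05. The size of the ratio depends on the gene lengths used, which are those of the deposited file (3119 bases for Rpl3 and 1643 for Rpl3l). Their longest transcripts have 1877 and 1375 bases. Without division by length the mean ratios were 2.84 and 2.28. The ratio also depends on how reads with several matches were treated, since Rpl3 has near-identical matches in 7 other genes and Rpl3l in 0. The length-scaled level of Rpl3l, 194 CPM per kilobase over all mice, was exceeded by 21 of the 77 standard genes, whose levels ran from 21.95 (Rps15a) to 728 (Rplp1) with a median of 115. These ranks depend on the lengths in the deposited file as well. Rps15a has a length of 6262 bases there and was at 133 and 142 CPM unscaled in LLC1 and PBS mice. Rpl36a, with 1655 bases, was lower unscaled, at 52.7 and 52.4 CPM.

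The genes whose log2 CPM tracked Rpl3l most closely over the 8 mice, among 9345 genes with at least 10 CPM, were Echdc3 (Pearson's r = 0.98), Ddx24 (0.97), Psmc1 (0.97), Zwint (0.97) and Acot2 (0.97). The 8 points include the difference between the groups, and the correlations are given as a description only.

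The paralogues lay on both sides of 0. Of the 6 tested, 3 had a log2 fold change above 0, with a median of -0.03, and Rpl3l was the 1 called. Rps27l, a paralogue of Rps27 known as a target of p53, was at 36.4 ± 3.62 CPM in LLC1 and 39.0 ± 5.87 CPM in PBS mice, a log2 fold change of -0.10 (edgeR FDR = 0.616). When 1 mouse was left out, Rps27l ranged from -0.16 to -0.006. Its ratio to Rps27 per length was 0.0949, 0.0998, 0.0991 and 0.0944 in LLC1 mice and 0.118, 0.129, 0.115 and 0.111 in PBS mice. The groups did not overlap for this ratio (exact permutation p = 0.0286), but over the 6 paralogue ratios tested the adjusted p was 0.114, the same as for Rpl3l to Rpl3. Rps27 was at 117 ± 13.2 CPM in LLC1 and 103 ± 13.0 CPM in PBS mice, a log2 fold change of 0.19 (edgeR FDR = 0.251). The ratio therefore holds a higher Rps27 as well as a lower Rps27l, neither called. Under the alternatives that kept all mice, Rps27 ranged from 0.02 to 0.20.

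Rpl22l1, the paralogue of Rpl22, had the most negative log2 fold change of the family, -0.29 (SE 0.18, edgeR FDR = 0.352), which was -0.06 without PBS 1-1. It was at 20.3, 14.0, 16.4 and 14.5 CPM in LLC1 mice and at 29.2, 17.8, 17.2 and 16 CPM in PBS mice. The highest value was that of PBS 1-1, and the other 3 PBS mice overlapped with the LLC1 mice. Its ratio to Rpl22 was 0.210 ± 0.0151 against 0.267 ± 0.0631 (exact permutation p = 0.0571, adjusted over the 6 ratios 0.114).

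Rpl7l1 stood at 42.5 ± 3.42 and 46.6 ± 3.54 CPM in LLC1 and PBS mice (log2 fold change -0.13, edgeR FDR = 0.330), beside 0.02 for Rpl7. Rpl36al and Rpl36a were close to level between the groups, with log2 fold changes of 0.03 and 0.01 that turned to -0.03 and -0.04 with scaling to total counts only. Rps4l, at 18.5 ± 4.04 and 15.7 ± 2.32 CPM, had a log2 fold change of 0.24 with overlapping groups (edgeR FDR = 0.349), beside -0.01 for Rps4x. With 1 mouse left out, Rps4l ranged from 0.098 to 0.33 and was not called. The testis-associated paralogues were near absent from ventricle. Rpl39l had between 0 and 4 counts per mouse, and Rpl10l had 0 counts in every mouse, beside log2 fold changes of -0.11 for Rpl39 and -0.05 for Rpl10, neither called.

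**Figure D2:**
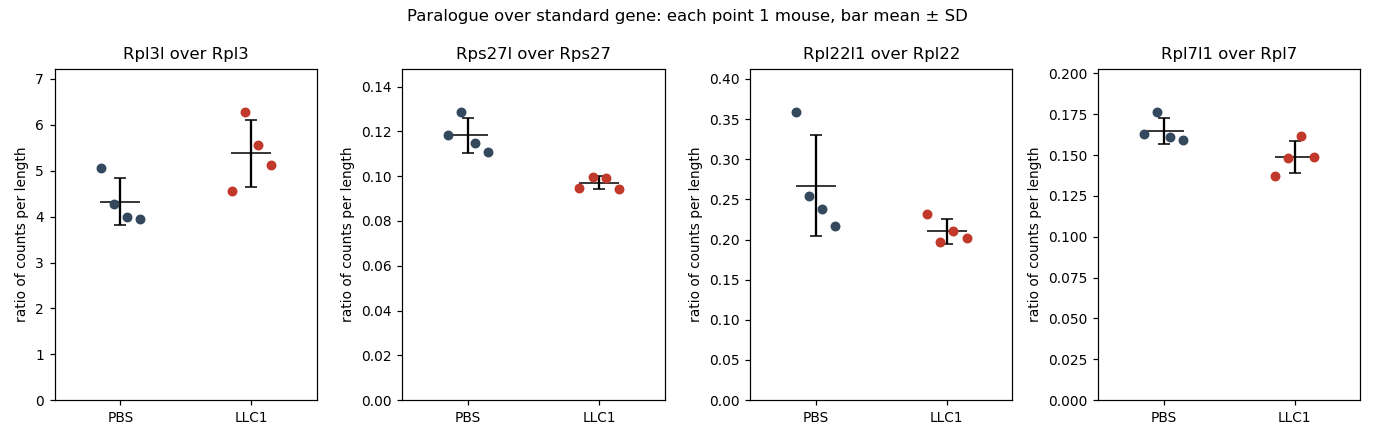
Ratio of counts per gene length, paralogue over standard gene, in each mouse (points) with the group mean ± SD (bars). Per length, Rpl3l had 3.95 to 6.28 times the counts of Rpl3, the Rps27l to Rps27 ratio did not overlap between groups, and the Rpl22l1 ratio was highest in PBS 1-1.

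The stalk is the flexible arm of the large subunit that recruits the elongation factors, and its 3 proteins had the highest median log2 fold change of the subunit classes, 0.25. Rplp0, the base of the stalk, was at 715, 616, 645 and 624 CPM in LLC1 mice and at 569, 543, 509 and 568 CPM in PBS mice. The groups did not overlap, and the log2 fold change was 0.25 (SE 0.07, edgeR FDR = 0.0453). Near-identical matches in 3 other genes cover 70.3% of the longest Rplp0 transcript. Rplp2, an acidic protein that binds Rplp0, was at 177, 170.3, 171 and 185 CPM against 163, 141, 132 and 139 CPM, again without overlap (log2 fold change 0.29, SE 0.07, edgeR FDR = 0.0281). For Rplp2, matches in 2 other genes cover 46.4% of its longest transcript. Its partner Rplp1, the member with the highest length-scaled level, was at 437, 359, 386 and 358 CPM against 404, 335, 297 and 308 CPM. PBS 1-1 exceeded 3 LLC1 mice for Rplp1, and the log2 fold change of 0.20 (SE 0.10) was not called (edgeR FDR = 0.240). Without PBS 1-1, Rplp1 had a log2 fold change of 0.30 and an edgeR FDR of 0.0293. Under the alternatives that kept all mice, it ranged from 0.05 to 0.21 and was not called.

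Among the 43 large subunit genes, 2 were called higher and 0 lower, 35 had a log2 fold change above 0, and the median was 0.10. The shares of all genes tested were 4.12% higher, 4.61% lower and 47.9% above 0. Rpl36 was at 214, 172, 180.5 and 164 CPM in LLC1 mice and at 148, 141, 133 and 157 CPM in PBS mice. Every LLC1 mouse was above every PBS mouse, with LLC1 1-2 the highest (log2 fold change 0.33, SE 0.09, edgeR FDR = 0.0341). Rpl36 has 4 near-identical genes that cover 97.9% of its longest transcript, so its counts depend on how reads with several matches were treated.

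Rpl41, whose product is a very short peptide at the interface of the subunits, had a log2 fold change of 0.32 with a wide spread (SE 0.13, edgeR FDR = 0.134), called only in the fit without PBS 2-5 (edgeR FDR = 0.0200). Rpl5 and Rpl11, which carry 5S ribosomal RNA and can bind Mdm2, differed by 0.04 and 0.16 on the log2 scale, neither called (edgeR FDR = 0.774 and 0.238). At the lower end, Rpl34 (-0.12, edgeR FDR = 0.541) and Rpl39 (-0.11, edgeR FDR = 0.477) had overlapping groups. Without PBS 1-1 they were at -0.0027 and -0.07. Rpl32, among the 5 members with the highest length-scaled level, was at 203 ± 21.3 and 201 ± 5.12 CPM.

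Among the 31 small subunit genes, 1 was called higher and 0 lower, 26 had a log2 fold change above 0, and the median was 0.16 (all genes tested: 4.12% higher, 4.61% lower, 47.9% above 0). Rps28 was at 116, 94.6, 95.2 and 98.2 CPM in LLC1 mice and at 79.9, 77.3, 81.3 and 91.8 CPM in PBS mice. The groups did not overlap, although the gap between LLC1 1-3 and PBS 2-5 was small (log2 fold change 0.29, SE 0.08, edgeR FDR = 0.0483). Rps28 has no near-identical transcript elsewhere, and 5.12% of its exon length overlaps Kank3 on the other strand.

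Rps21 fell just outside the limit. It was at 171, 144, 144 and 132 CPM against 124, 109, 109 and 133 CPM, with LLC1 2-2 level with PBS 2-5 (log2 fold change 0.31, SE 0.09, edgeR FDR = 0.0542). It was called with DESeq2 (FDR = 0.0210), among all genes with at least 1 count (edgeR FDR = 0.0207), with the likelihood ratio test (edgeR FDR = 0.0276) and with robust variances (edgeR FDR = 0.0452), and without PBS 1-1 (edgeR FDR = 0.0395) or PBS 2-5 (edgeR FDR = 0.0283). Rps15, one of the most abundant members per length, was at 262 ± 27.2 and 220.4 ± 15.5 CPM (log2 fold change 0.25, edgeR FDR = 0.0758). It was called with DESeq2 (FDR = 0.0422), among all genes with at least 1 count (edgeR FDR = 0.0478) and without PBS 1-1 (edgeR FDR = 0.0465). In the other 10 alternatives that kept all mice, its log2 fold change was 0.13 to 0.25, without a call. Rps6, the substrate of the S6 kinases, and Rpsa, also known as the laminin receptor, differed by 0.07 and 0.09 on the log2 scale (edgeR FDR = 0.541 and 0.498).

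Rps27a, which is made as a fusion with ubiquitin, had the largest SE of the standard genes. It was at 131, 76.6, 81.8 and 78.7 CPM in LLC1 mice and at 69.6, 117, 108 and 112 CPM in PBS mice. LLC1 1-2 and PBS 1-1 each lay with the other group, and the log2 fold change of -0.14 had an SE of 0.19 (edgeR FDR = 0.669). Without LLC1 1-2 it was -0.36, and without PBS 1-1 it was -0.28, neither called. Outside the name rule, Fau, the ubiquitin-like fusion of Rps30, and Rack1, the small subunit scaffold listed as Gnb2l1, had log2 fold changes of 0.18 and 0.11, neither called (edgeR FDR = 0.280 and 0.380).

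**Figure D3:**
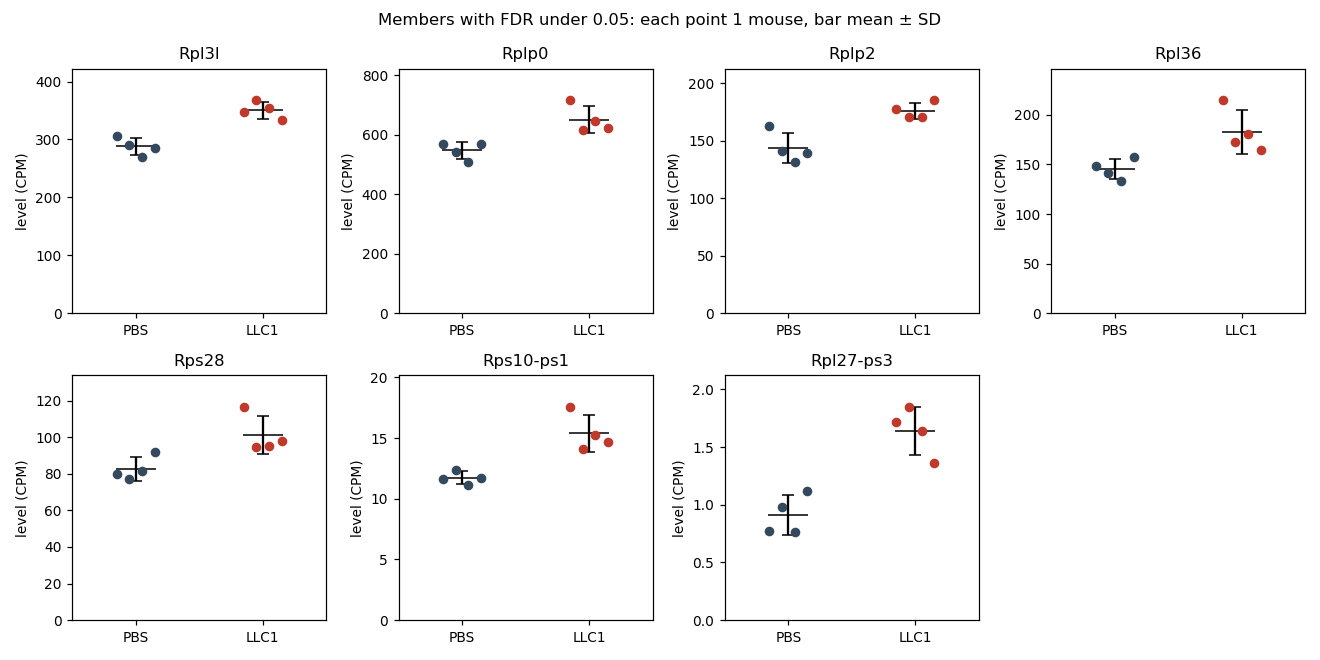
Level in CPM (vertical axis, from 0) of 7 members with an FDR under 0.05 in each mouse, with the group mean ± SD. LLC1 values lie above PBS values for every gene shown, and LLC1 1-2 is the highest mouse for Rplp0, Rpl36, Rps28 and Rps10-ps1.

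Other called members were pseudogene-named rows at low level. Rps10-ps1 was at 17.5, 14.1, 15.3 and 14.7 CPM in LLC1 mice and at 11.7, 12.4, 11.1 and 11.7 CPM in PBS mice, without overlap (log2 fold change 0.39, SE 0.09, edgeR FDR = 0.0240). Its parent Rps10 differed by 0.10 (edgeR FDR = 0.546), and the whole Rps10-ps1 transcript matches Rps10 or another copy, so its counts are uncertain. Rpl27-ps3 was at 1.36 to 1.84 CPM in LLC1 mice and at 0.765 to 1.12 CPM in PBS mice (log2 fold change 0.83, SE 0.22, edgeR FDR = 0.0408), beside 0.15 for Rpl27, and it rests on 9 to 30 counts per mouse. Near-identical matches in 4 other genes cover 100% of its longest transcript. Rpl28-ps4 had 0 counts in every mouse, and Rpl21-ps4 and Rpl36-ps4 had 2 counts each in all. The 233 ribosomal protein pseudogene rows not annotated as protein coding together took 0.0605% of the counts in LLC1 and 0.0551% in PBS mice.

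Some alternative ended each of the calls named. With DESeq2 the FDR was 0.000289 for Rpl3l, 0.00392 for Rplp2, 0.00704 for Rpl36, 0.00789 for Rplp0, 0.0120 for Rps10-ps1 and 0.0191 for Rps28, and Rpl27-ps3 was lost (0.0804). Scaling to total counts only left Rpl3l and Rplp2 as the 2 members called, with edgeR FDRs of 0.0714 for Rpl36, 0.110 for Rplp0, 0.140 for Rps28, 0.0617 for Rps10-ps1 and 0.0679 for Rpl27-ps3. With GC offsets, Rplp2 had a log2 fold change of 0.24 (edgeR FDR = 0.108), Rplp0 of 0.22 (0.0826), Rpl36 of 0.24 (0.109) and Rps10-ps1 of 0.33 (0.0557). With the first number of the mouse code as a covariate, Rplp0 had a log2 fold change of 0.23 (edgeR FDR = 0.0546) and Rpl27-ps3 of 0.78 (0.0609). With length offsets, Rpl36 had a log2 fold change of 0.18 (edgeR FDR = 0.122), Rps10-ps1 of 0.25 (0.0666), Rpl27-ps3 of 0.69 (0.0649) and Rps28 of 0.25 (0.0527). Rps28 was also lost when each mouse had to have 10 counts or more (edgeR FDR = 0.0523), and Rpl27-ps3 among all genes with at least 1 count (0.0606). Of the 8 fits that left out 1 mouse, the call was lost in 4 for Rps10-ps1, 5 for Rpl36, 6 each for Rplp0 and Rplp2, and 7 each for Rps28 and Rpl27-ps3.

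Near-identical sequences in other genes are common in this family. Of the 77 standard genes, 66 have a transcript of another gene at 97% identity or more over at least 150 bases, and for 30 of them such matches cover over 50% of the longest transcript. The matches include genes whose exons overlap at the same place, such as Wdr38, which overlaps 66.2% of the exon length of Rpl35. For 23 of the 77, another gene overlaps over 5% of the exon length. The 11 genes without a match all had a log2 fold change above 0, with a median of 0.16, and 1 of them (Rps28) was called. The 66 genes with a match had a median of 0.12, and 4 were called (all genes tested: 4.12% called higher).

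The ribosomal protein mRNA pool as a whole overlapped between the groups. The members took 1.68%, 1.43%, 1.48% and 1.44% of all counts in the LLC1 mice and 1.38%, 1.46%, 1.38% and 1.51% in the PBS mice. The means were 1.51 ± 0.118% and 1.43 ± 0.0631% (SD, n = 4 each), and LLC1 1-2 was the mouse above the rest. After TMM scaling the same sums were 1.54 ± 0.148% and 1.405 ± 0.0667%.

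LLC1 1-2 was the mouse with the highest level for 66 of the 77 standard genes, with a median of 1.20 times each gene's mean. PBS 2-1 was the lowest for 43 of them, with a median of 0.893 times the mean. LLC1 1-3 and 2-2, at medians of 0.974 and 0.965, lay within the range of the PBS mice (0.893 to 0.976). LLC1 1-2 also had the highest summed level of the 5 erythroid markers, 0.498% of counts, beside 0.138% to 0.261% in the other LLC1 mice and 0.151% to 0.325% in the PBS mice. Their part in the result was not tested.

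Without LLC1 1-2, the median log2 fold change of the standard genes was 0.05, 53 of 77 were above 0, and Rpl3l was the 1 member called (edgeR FDR = 0.0401). Leaving out each of the other mice gave medians between 0.09 and 0.17 and between 0 and 16 called members, with 0 called lower. The counts were 1 without LLC1 1-3, 0 without LLC1 1-5, 3 without LLC1 2-2, 13 without PBS 1-1, 0 without PBS 1-3, 0 without PBS 2-1 and 16 without PBS 2-5.

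**Figure D4:**
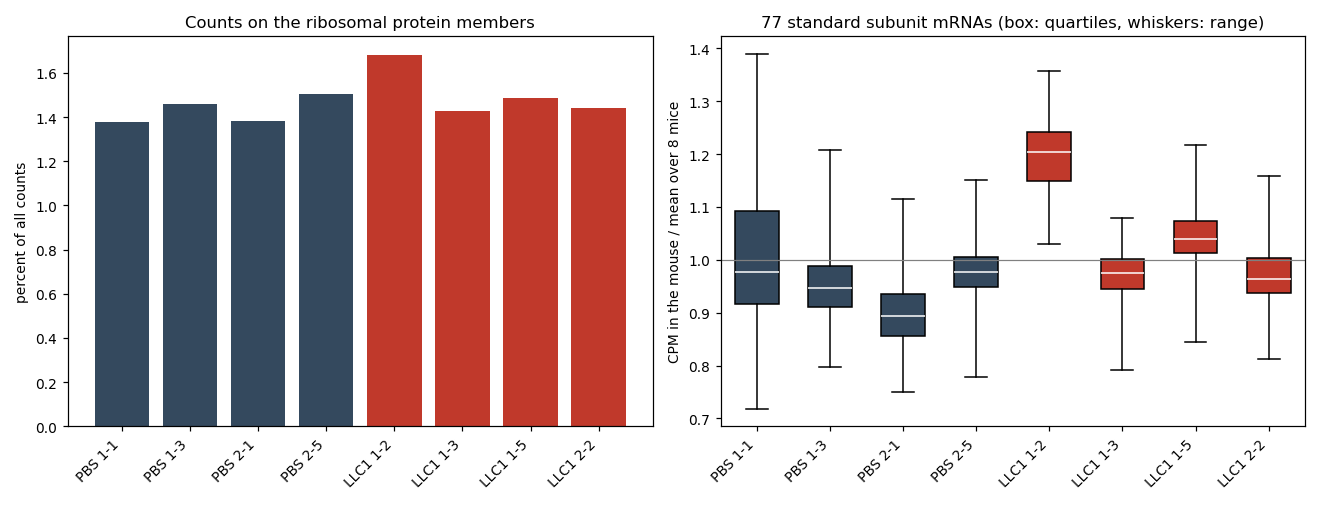
Left, percent of all counts on the 106 members in each mouse; right, level of the 77 standard subunit genes in each mouse over the gene's mean of 8 mice (box, quartiles and median; whiskers, range). LLC1 1-2 stands above the rest with a median of 1.20, and LLC1 1-3 and 2-2 lie among the PBS mice.

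Transcript starts were examined because they carry the TOP tract. In GENCODE M21, 22 of the 77 standard genes (28.6%) have an annotated protein-coding transcript that starts with a cytosine followed by at least 4 pyrimidines, against 1121 of 21901 genes (5.12%) with such a transcript and 0 of 7 paralogues. Annotated starts are often not the true ones, so the share is that of the annotation. The first 20 bases are shown for the called gene Rpl36, for Rps21 and for the abundant and level Rpl32 and Rps2, with the tract in capitals, and for Rpl3l and Rpl3, which have none.
Rpl36-201: CTTCCTgtcccggccgccat
Rps21-201: CCCTCCTgcccaatagtgct
Rpl32-201: CTTCCTTCTTCCTCggcgct
Rps2-201: CTTCTTCTTCTTCgggagaa
Rpl3l-202: agctctgtcatttgacctct
Rpl3-201: agggggcggagccatcactt
The longer tracts of Rpl32 (14 bases) and Rps2 (13 bases) stand on genes with log2 fold changes of 0.01 and 0.00, and the shorter one of Rpl36 (6 bases) on a gene that was called. The 22 genes with such a start had a median log2 fold change of 0.11, and the other 55 a median of 0.15.

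Promoter windows of 300 bases, from 250 before to 50 after the start (RefSeq, GRCm38.p6), were found for 66 members, 57 of them standard genes, and a gene was counted if any of its windows held the motif on either strand. The ETS motif CCGGAAG was found for 42.1% of the 57 genes and for 9.93% of all 27025 genes with a window. AAGATGG, the core bound by YY1, was found for 15.8% against 7.28%, and the SP1 box GGGCGG for 61.4% against 38.2%. TATAAA was found for 10.5% against 15.7%. None of the 4 was found in the windows of Rpl3l, which says only that these letters are not there.

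Across the 77 standard genes, the log2 fold change rose weakly with the GC content of the transcript (Pearson's r = 0.28, Spearman's rho = 0.29), as it did over all genes tested (r = 0.22). The 38 genes above the median GC content of 51.0% held 4 called genes and had a median of 0.16, and the other 39 held 1 and had a median of 0.07 (all genes tested: 4.12% called higher). Pearson's r was -0.25 with log2 gene length, 0.06 with level and -0.15 with the number of near-identical other genes, for which Spearman's rho was -0.38. These are correlations across genes of the same 8 libraries and have no replicate behind them.

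The related lists are read against the shares of all genes tested, 4.12% called higher and 4.61% lower, and 12.4% and 13.0% at an unadjusted p under 0.05. Of 85 ribosome biogenesis factors tested, 2 were higher and 0 lower, with a median log2 fold change of 0.00. The called factor with the lowest FDR was Las1l, which acts in processing of the second internal spacer of pre-ribosomal RNA, at 75.9 ± 3.16 and 63.6 ± 2.77 CPM (log2 fold change 0.26, edgeR FDR = 0.0251). Of 15 RNA polymerase I genes, 7 dedicated chaperones of ribosomal proteins and 9 snoRNA hosts, 0 passed the test in either direction, with medians of 0.02, -0.01 and 0.12. At an unadjusted p under 0.05, 2 polymerase I genes were higher and 1 snoRNA host was lower.

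Other mRNAs known for a TOP tract, such as elongation factors, had 0 of 17 higher and 1 lower, while 5 were higher and 1 lower at an unadjusted p under 0.05. The lower one was Pabpc1, the cytoplasmic poly(A)-binding protein, at 78.3 ± 2.92 and 92.1 ± 4.89 CPM (log2 fold change -0.23, SE 0.06, edgeR FDR = 0.0372). The list's median was 0.02. Mitochondrial ribosomal proteins, which build the separate ribosome of mitochondria, had 5 of 77 higher and 0 lower, or 14 and 0 at an unadjusted p under 0.05, with a median of 0.04. The lowest FDR was that of Mrpl38 (log2 fold change 0.30, edgeR FDR = 0.0171).

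**Figure D5:**
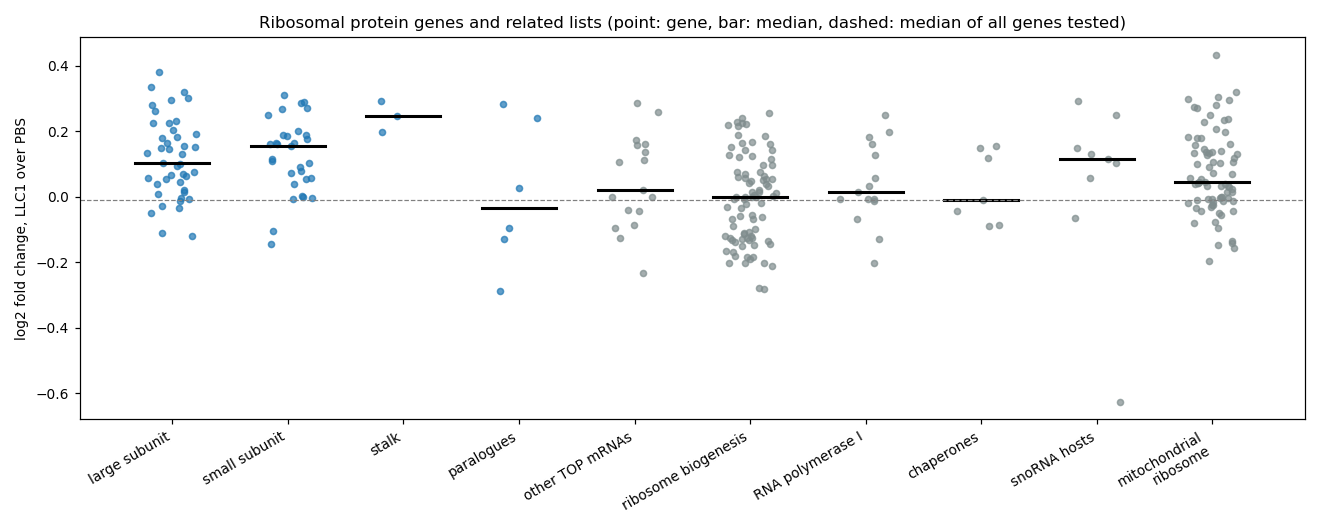
Log2 fold change of LLC1 over PBS mice (vertical axis) of each gene tested (points) in the ribosomal protein classes (blue) and in related lists (grey), with the list median (bar) and the median of all genes tested (dashed, -0.01). Medians are 0.10 for large subunit, 0.16 for small subunit and 0.25 for stalk genes, beside 0.00 for biogenesis factors and 0.04 for the mitochondrial ribosome.

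Some markers of other cell types were called, beside 4.12% of all genes tested called higher and 4.61% lower. Of 6 fibroblast markers 3 were lower, of 6 endothelial markers 1, of 6 macrophage markers 1 and of 4 dividing-cell markers tested 4, and 0 of these were higher. Of the neutrophil markers, 2 of 2 tested were higher, and their 4 genes took at most 0.000261% of counts in any mouse. Of 5 erythroid, 3 smooth muscle, 2 atrial and 2 skeletal muscle markers tested, 0 were called, and 0 of 5 lymphocyte markers passed the filter. In LLC1 mice the fibroblast list took 0.0705% to 0.0812% of counts, the endothelial list 0.0777% to 0.0944% and the macrophage list 0.0161% to 0.0192%. In PBS mice these were 0.0730% to 0.103%, 0.0855% to 0.127% and 0.0155% to 0.0262%, and the lowest value of each was that of PBS 1-1. The other 3 PBS mice lay above every LLC1 mouse in all 3 lists, from 0.0942%, 0.114% and 0.0219% upward. Their part in the ribosomal protein values was not tested.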

How the data were processed

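The authors sequenced mRNA of heart ventricle as 150-base paired-end reads, and the submitters' processing notes name CASAVA, STAR, featureCounts and the mm10 genome. Versions, the annotation, the strand setting and the treatment of reads with several matches are not given in the sources used here. The deposited values are whole-number counts per gene, not normalized, for 8 mice, whose groups were taken from the labels. Separate animals are given as replicates.

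Counts were fitted over all genes with edgeR 4.0.16 in R 4.3.3 (filterByExpr, TMM, quasi-likelihood F-test, Benjamini-Hochberg FDR under 0.05). The standard error is the absolute log2 fold change over the square root of F. CPM were TMM-scaled, and log2 CPM used a prior count of 2. Exact permutation tests ran over 70 arrangements, two-sided. Alternatives were DESeq2 1.42.0, limma-voom (limma 3.58.1), RLE, upper-quartile and total-count scaling, other filters, the likelihood ratio test, robust variances, the first number of the mouse code as a covariate, length and GC offsets (loess span 0.3), and each mouse left out. Similar transcripts were searched with BLAST 2.17.0 against GENCODE M21, which held 106 of 106 members. Other steps used Python 3.11.15. The fits were tested on simulated data.

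The members and lists were chosen with earlier results of these data known. Named genes were called members, those with the 5 largest changes in each direction among genes of at least 10 CPM, the paralogue pairs, the stalk and 5 other chosen genes, and the 5 highest and 5 lowest per length, with the lowest-FDR called gene of each other list and the 5 genes most like Rpl3l. Rps2, Rps10, Rpl27 and Rps15a were named after their values were seen. In older annotations Rack1 and 6 other listed genes carry other symbols and were matched by gene ID. Counting error is not small for rows such as Rpl27-ps3, with 9 to 30 counts per mouse. Single genes left out of the text and plots still enter every count and median.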

Additional observations from a re-analysis of the deposited data

Results flagged for a closer look

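Of 68 groups of 4 mice examined for a mouse set far apart from the other 3, 4 held one, and chance alone gives about 1 in 20. LLC1 1-2 was apart for Rps28, at 116 CPM beside 94.6 to 98.2 CPM in the other LLC1 mice, and for Rps27a, at 131 CPM beside 76.6 to 81.8 CPM. PBS 1-1 was apart for Rpl22l1, at 29.2 CPM beside 16 to 17.8 CPM in the other PBS mice, and for Rpl36a, at 60.2 CPM beside 49.5 to 50 CPM. LLC1 1-2 is also the mouse with the highest ribosomal protein levels in general, and PBS 1-1 is the one with the lowest share of counts on protein-coding genes. The causes were not tested.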

How the results depend on the processing

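The number of members called higher was 8, and it moved to 14 with DESeq2, 13 with every gene of at least 1 count, 5 with length offsets and 2 with total counts only. It stayed between 6 and 12 under the other alternatives that kept all mice, and 0 members were called lower in any fit. At an unadjusted p under 0.05 with edgeR, 0 members were lower. Leaving out 1 mouse gave 0 to 16 called members and 542 to 1949 called genes in all. Taken over protein-coding counts, the mean share of counts on the members was 1.61% in LLC1 and 1.55% in PBS mice. The direction turned for genes near 0: with length offsets, Rpl3 was at 0.0089, Rpl36a at -0.011, Rpl36al at -0.020 and Rpl32 at -0.12; with total counts only, Rpl36a was at -0.042, Rpl36al at -0.029, Rpl7 at -0.034, Rpl5 at -0.0075 and Rpl32 at -0.042. With the first number of the mouse code as a covariate, Rpl36a was at -0.042, Rpl36al at -0.017, Rpl7 at -0.0055 and Rpl32 at -0.011. With GC offsets, Rps27l was at 0.0082, Rpl10 at 0.022, Rps4x at 0.023 and Rps6 at -0.0014, and Rps4x was at 0.0094 with every gene of at least 1 count. When 1 mouse was left out, the log2 fold change ranged from -0.10 to 0.026 for Rpl3, -0.0099 to 0.10 for Rpl22, -0.067 to 0.081 for Rpl36a, -0.063 to 0.090 for Rpl36al, -0.045 to 0.057 for Rpl7, -0.068 to 0.044 for Rps4x, -0.022 to 0.097 for Rpl5 and -0.055 to 0.057 for Rpl32. The causes were not tested. No paired analysis was possible because the groups share only 1 mouse code, carried by different animals.

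Total-count scaling moved the median log2 fold change of all genes tested by -0.05. At 12480706 counts or more per mouse, counting error is small for most standard genes, and 4 mice per group limit the precision. Counts of genes with near-identical copies depend on a treatment of reads that is not given in the sources used here.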
